A study of Homo sapiens with 4 samples.

Results

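N6-methyladenosine (m6A) is the most common internal modification of mRNA. It is written by a nuclear complex built around METTL3 and METTL14, removed by the demethylases FTO and ALKBH5, and bound by reader proteins such as the YTH family. In mammalian mRNA it is known to be densest near stop codons, in 3′ untranslated regions and in long internal exons. In m6A immunoprecipitation sequencing (MeRIP-seq), fragmented RNA is pulled down with an antibody. A peak caller reports the stretch of RNA where fragments pile up above the input, so a peak marks a stretch and not a single modified base. What sets the edges of the listed peaks was not tested.

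The regions described here are m6A peaks found in heated and in control CaSki cells at the same place but with different edges. CaSki is a human cell line derived from a squamous carcinoma of the cervix, with papillomavirus DNA integrated in its genome. Heated cells were kept at 42 °C for 60 min, control cells stayed at 37 °C, and each condition gave 1 immunoprecipitated and 1 input library, so 4 libraries in all. Members were chosen by the start and end of the listed peaks: a control peak was taken when it overlapped a heat peak by at least 1 base and no heat peak had the same start and end. This held for 3525 of the 14367 control peaks (24.5%, 95% Wilson interval 23.8 to 25.2%), in 3171 of 7138 genes. They made up 34.2% (33.3 to 35.1%) of the 10305 control peaks that overlapped any heat peak, and the other 6780 had identical edges in both lists. The rule uses the intervals of both lists, so the members' positions and lengths are a description, and with 1 immunoprecipitated library per condition no difference between conditions has a test. Intervals around shares cover the counting of peaks only and not the spread between cultures.

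The lists fit the labelled epithelial cell in part. Of 10 markers of squamous and cervical epithelium, 9 had a heat peak and 5 a control peak, TP63, SFN, ELF3 and CDH1 among those in both lists. None of 4 immune markers, such as PTPRC, had a peak in either list. Of 5 fibroblast and endothelial markers, COL1A1 had a peak in both lists and CDH5 in control. Read totals were not analysed here, and the depth behind the peaks is unknown. RNA amounts in the input libraries were not analysed either, so a change of a peak's edge cannot be told apart from a change in RNA amount or in depth.

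Most members were simple pairs, in which 1 heat peak and 1 control peak overlapped each other and nothing else. There were 3420 such pairs, and 3410 of them carried the same gene symbol in both lists. The heat peak was shorter in 2027 pairs (59.3%, 57.6 to 60.9%), longer in 1392 (40.7%, 39.1 to 42.4%) and of equal length in 1. Over all control peaks, 14.1% were in a pair that was shorter in heat and 9.69% in a pair that was longer. The median difference was small, -17 bases for heat minus control, with quartiles of -134 and 59 bases. Without regard to direction the length changed by a median of 93 bases. The peaks of a pair covered much the same RNA: together the pairs spanned 4.68 megabases in heat and 4.84 megabases in control, of which 4.37 megabases were common, and the shared stretch was at the median 91.2% of the joint span. Large changes were rare. The heat peak was at least 2 times as long as the control peak in 42 pairs (1.23%), and the control peak at least 2 times as long as the heat peak in 85 (2.49%).

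**Figure D1:**
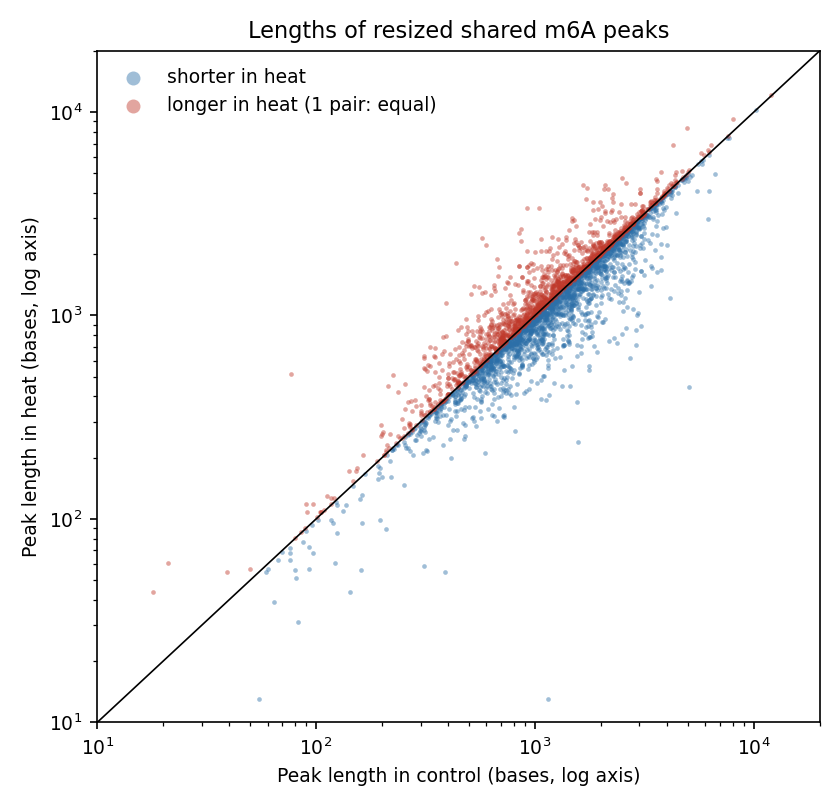
Length of each peak in heat (vertical log axis, bases) against its length in control (horizontal log axis, bases) for the 3420 one-to-one pairs, 1 point per pair, with the line of equal length. Most points lie close to the line, 2027 below it and 1392 above it.

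In most pairs a single edge had moved. One edge was unmoved in 3053 of the 3420 pairs (89.3%, 88.2 to 90.3%). By genome position the moving edge was divided evenly, the end in 1517 pairs (44.4%) and the start in 1536 (44.9%). The heat peak lay inside the control peak at both edges in 135 pairs (3.95%), the control peak lay inside the heat peak in 45 (1.32%), and both edges had moved the same way in 187 (5.47%). The even division came apart once the direction of transcription was added. The files give no strand, so the strand of each gene was taken by gene identifier from RefSeq (GRCh38.p14, strand only), which placed 2787 pairs and left 633 unplaced.

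The edge that moved was mostly the one at the 3′ side of the transcript. Only the 3′ edge moved in 2144 of the 2787 pairs (76.9%, 75.3 to 78.5%), only the 5′ edge in 346 (12.4%, 11.2 to 13.7%), and both in 297 (10.7%, 9.56 to 11.9%). The shares were similar on both strands: the 3′ edge alone moved in 75.3% (73.0 to 77.5%) of 1441 pairs on the plus strand and in 78.7% (76.4 to 80.8%) of 1346 pairs on the minus strand. Where the 3′ edge alone moved, it lay further in, so that the heat peak was shorter, in 1244 pairs and further out in 900 (58.0% shorter, 55.9 to 60.1%). The median size of that move was 92 bases inwards and 89 bases outwards. Moves of the 5′ edge alone were smaller, with a median of 42.5 bases against 91 for the 3′ edge, and 63.0% (57.8 to 67.9%) of them were inwards. The comparisons by strand and by place in the gene were added with the data already seen.

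**Figure D2:**
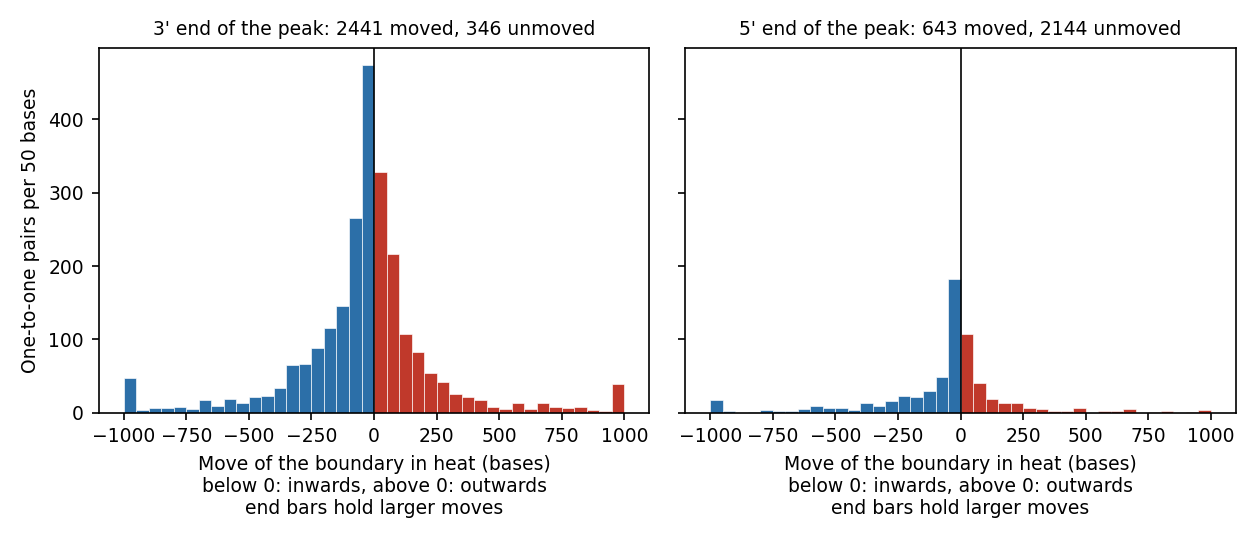
Moves of the 3′ edge (left) and of the 5′ edge (right) in heat relative to control, in bases, for the 2787 one-to-one pairs with a known strand. Bars count pairs per 50 bases, with unmoved edges left out and larger moves gathered in the end bars; moves inwards (a shorter heat peak) are left of 0. The 3′ edge moved in 2441 pairs and the 5′ edge in 643.

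Resized peaks also lay at particular places in their genes. Among shared control peaks with a strand, 55.0% (52.9 to 57.1%) of the 2198 that were the most 3′ of several listed peaks of their gene were resized. So were 54.7% (52.6 to 56.8%) of the 2080 that were the only peak of their gene. The share was 15.9% (14.3 to 17.7%) of the 1781 most 5′ peaks and 10.1% (8.96 to 11.4%) of the 2396 peaks that lay between others. Length moved with place, since the median control length was 960.5 bases for the most 3′ peaks and 192 bases for those in between. Among peaks over 1000 bases the shares were 65.8% for the most 3′ peaks and 39.6% for those between, and among peaks over 500 and up to 1000 bases they were 57.9% and 20.5%. The edge that moved varied with the place. The 3′ edge alone moved in 87.8% of the 1171 pairs at the 3′ most peak. At the 5′ most peak, with 267 pairs, the 5′ edge alone moved in 53.9% and the 3′ edge alone in 39.0%. Peaks between others, with 221 pairs, moved at the 3′ edge alone in 67.4% and at the 5′ edge alone in 27.6%. For only peaks, with 1128 pairs, these shares were 76.5% and 8.78%. Whether edges coincide with exon limits was not tested, since no hg19 annotation was used here.

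Resizing varied with length, mostly upwards but not at the extremes. Among the 500 shared control peaks of up to 100 bases 29 were members (5.80%, 4.07 to 8.21%). Of the 1781 shared control peaks over 100 and up to 200 bases, 39 (2.19%, 1.61 to 2.98%) were members. For those over 700 and up to 1000 bases the share was 47.5% (44.9 to 50.2%), and for those over 2000 and up to 3000 bases it was 63.8% (60.5 to 67.0%). Over 3000 bases it was 59.9% (55.1 to 64.4%). Within the heat list, peaks that overlapped a member had a median length of 1115 bases, against 381 bases for peaks with identical edges, and within the control list the medians were 1165 and 381 bases. The median fold enrichment over background, the authors' value for single peaks, was 40.5 for resized and 34.7 for identical peaks within the heat list, and 65.0 and 43.9 within the control list. The authors' significance score (the p-value of the peak as -10 log10) had medians of 302 and 335 within the heat list, and 577 and 384 within the control list. Its scaling and that of the folds between libraries are not given, so values of one list are not set against those of the other. A listed false discovery rate of 100% applied to 1031 of the 3525 members (29.2%) and to 2693 of the 6780 identical control peaks (39.7%).

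**Figure D3:**
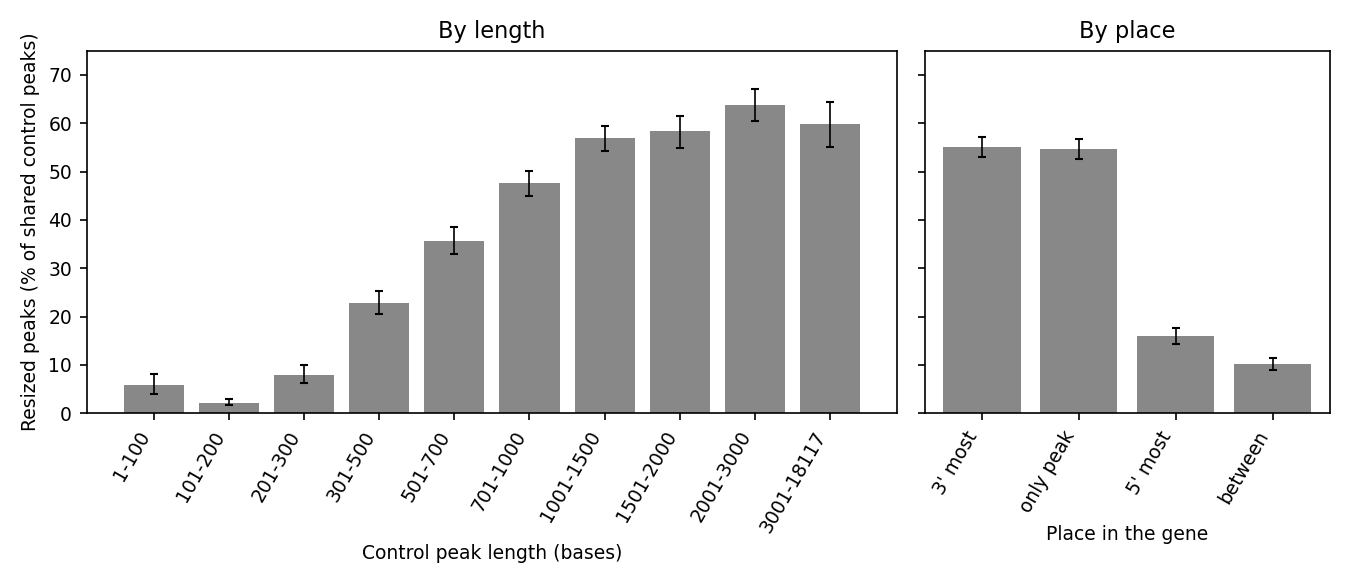
Resized peaks as a percentage of the control peaks that overlap any heat peak, by control peak length in bases (left) and by place among the listed control peaks of the gene (right). Bars give the share and error bars the 95% Wilson interval; the share is 5.80% for lengths up to 100 bases, lowest at 2.19% for those over 100 and up to 200, highest at 63.8% for those over 2000 and up to 3000, and 59.9% for those longer still, and 55.0% for the most 3′ peak of a gene and 10.1% for peaks between others.

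For each class of moved edges, the 4 pairs with the largest change are given, among those in which both peaks were at or above the median score of their list and the gene had a symbol other than a bare clone or locus identifier. The 3′ edge of NUAK1, an AMPK-related kinase, reached 2508 bases further in heat. Its peak spanned positions 106457497 to 106461733 of chromosome 12 (hg19, as all positions) in heat and 106460005 to 106461733 in control, on the minus strand. TOR1AIP2, an activator of the torsin ATPases of the endoplasmic reticulum, had a heat peak of 3382 bases and a control peak of 915 bases with a common 5′ edge (chromosome 1, 179834989). Both genes thus gained more than 2000 bases at the 3′ side. The reverse held for ITPRIP, which binds the inositol trisphosphate receptor: its peak had 4087 bases in heat and 6246 in control, with the same 5′ edge. CIAO1, a protein of cytosolic iron-sulfur cluster assembly, had 887 bases in heat (chromosome 2, positions 96936849 to 96937735) and 3052 bases in control, again with an unmoved 5′ edge.

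Other large moves were found in genes without a strand here, so that the edge is given by genome position. MCL1, an anti-apoptotic member of the BCL2 family, had 851 bases in heat (chromosome 1, positions 150549117 to 150549967) and 2888 bases in control, with a moved start. P2RY2, a receptor for extracellular ATP and UTP, had the largest gain at an end: 8379 bases in heat and 4928 bases in control from a common start at position 72945067 of chromosome 11. KIRREL, an adhesion protein of the immunoglobulin superfamily, had 4737 bases in heat and 2492 in control, and TTPAL, related to the tocopherol transfer protein, 4187 and 2071. MCL1 was at a score of 3100 in both lists, and so was P2RY2. The TTPAL heat peak, with a score of 207, lay just above the heat median of 203.

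Pairs that changed at both edges were fewer. RANBP6, an importin-like protein, had a heat peak of 1718 bases that lay inside a control peak of 3443 bases, its 5′ edge displaced by -1620 bases and its 3′ edge by -105 (negative is inwards). KLHL9, a substrate adaptor of the ubiquitin ligase CUL3, likewise had 1637 bases in heat and 2657 in control, and MFAP3, a microfibril-associated protein, 1256 and 2464. In ARIH2OS the heat peak had 377 bases and the control peak 1552. This gene is named as the opposite strand of ARIH2, and peaks without strand cannot be assigned to one of such partners with certainty. The control peak lay inside the heat peak for ANKRD12 (4695 bases in heat and 3587 in control), GIT2, an ARF GTPase-activating protein (2067 and 1061), VTI1A, a SNARE of vesicle fusion (2160 and 1590), and LMBR1 (1402 and 1049). Both edges of ENTPD1, the ectonucleotidase CD39, moved towards the 3′ side, by 954 bases at the 5′ edge and 73 at the 3′ edge, with 2143 bases in heat and 3024 in control. For ANKFY1, a Rab5 effector, the 5′ edge was displaced by -1015 bases and the 3′ edge by 58 bases in heat, with 1221 bases in heat and 2178 in control. HOXB6, a homeobox transcription factor, had 2915 bases in heat and 1475 in control with 868 in common, and RP1L1 4962 and 6636 with 4906 in common. The identifier rule passed over AK096230 in this class, with 3281 bases in heat and 1848 in control.

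Splits and joins were rare. A control peak was overlapped by 2 heat peaks in 43 cases (0.299% of control peaks), and a heat peak by 2 control peaks in 35, which took in 70 control peaks (0.487%). No peak was overlapped by more than 2. The divided control peaks were long, with a median of 2509 bases, and the gap between the heat parts had a median of 145 bases (quartiles 62 and 203). The joining heat peaks had a median of 2931 bases, and the gap between the control parts had a median of 159 bases (quartiles 100 and 233.5). Both outer edges were kept in 11 splits and in 8 joins. Thus 43 control peaks were divided in heat and 35 pairs of control peaks were joined, 8 of each kind in chains in which a part also overlapped a further peak.

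There were 8 splits with a control score of 3100. The 6 with the highest fold among these are given, and MKI67 and RIN3 follow, with gaps of 225 and 2183 bases. The 6 differed in how far the heat parts kept to the control span. GNAZ, a G protein alpha subunit, had heat peaks of 1169 and 675 bases separated by 104 bases, where the control list had 1 peak of 1948 bases at chromosome 22, positions 23465274 to 23467221. Both outer edges were the same. PDP1, the pyruvate dehydrogenase phosphatase, had heat peaks of 2707 and 863 bases, 164 bases apart, and a control peak of 3697 bases on chromosome 8. In PTPMT1, a mitochondrial phosphatase, heat parts of 786 and 1244 bases lay 290 bases apart within and beyond a control peak of 1991 bases, and the file assigned the second part to the neighbouring gene KBTBD4. C19orf54 counts as a split through 5 bases only: a heat peak of 1504 bases assigned to the gene ITPKC overlapped its control peak by that much, and lay 744 bases from the other part, of 1166 bases. It was the only split with a part that overlapped by under 50 bases. DGCR14 and ZXDC were chains. For DGCR14 the heat parts, 3200 and 833 bases, were 14 bases apart and reached far beyond the control peak of 1711 bases, and for ZXDC the parts of 1221 and 1059 bases were 484 bases apart, where the control peak had 1843 bases. Some heat parts had scores below the heat median of 203: 125 in C19orf54, 131 in DGCR14, 135 in ZXDC and 136 in PDP1. Both parts of GNAZ and of PTPMT1 were above it. The shorter MKI67 part had a score of 50.6, with a lowest listed score of 50. Of the splits, 40 had the same gene symbol for the control peak and both parts.

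Joins are shown in the same way, for the 6 with the highest heat score. RNF43, a ubiquitin ligase that dampens Wnt signalling, had 1 heat peak of 2208 bases at chromosome 17, positions 56492687 to 56494894, where the control list had peaks of 901 and 1066 bases, 241 bases apart, with both outer edges kept. TJAP1, a tight junction-associated protein, had 2931 bases in heat and parts of 415 and 2290 bases, 226 bases apart, in control, also with both edges kept. ZNF618 had a heat peak of 6051 bases over control parts of 2367 and 3681 bases. IPO9, an importin, had 3877 bases in heat over control parts of 1098 and 2331 bases. Some control parts had low scores: the score of the shorter TJAP1 part was 81.3 and that of the longer IPO9 part 117, with a lowest listed score of 50. TTL, the tubulin tyrosine ligase, and PABPN1, the nuclear poly(A)-binding protein, had joining heat peaks of 2077 and 1302 bases and belonged to chains.

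**Figure D4:**
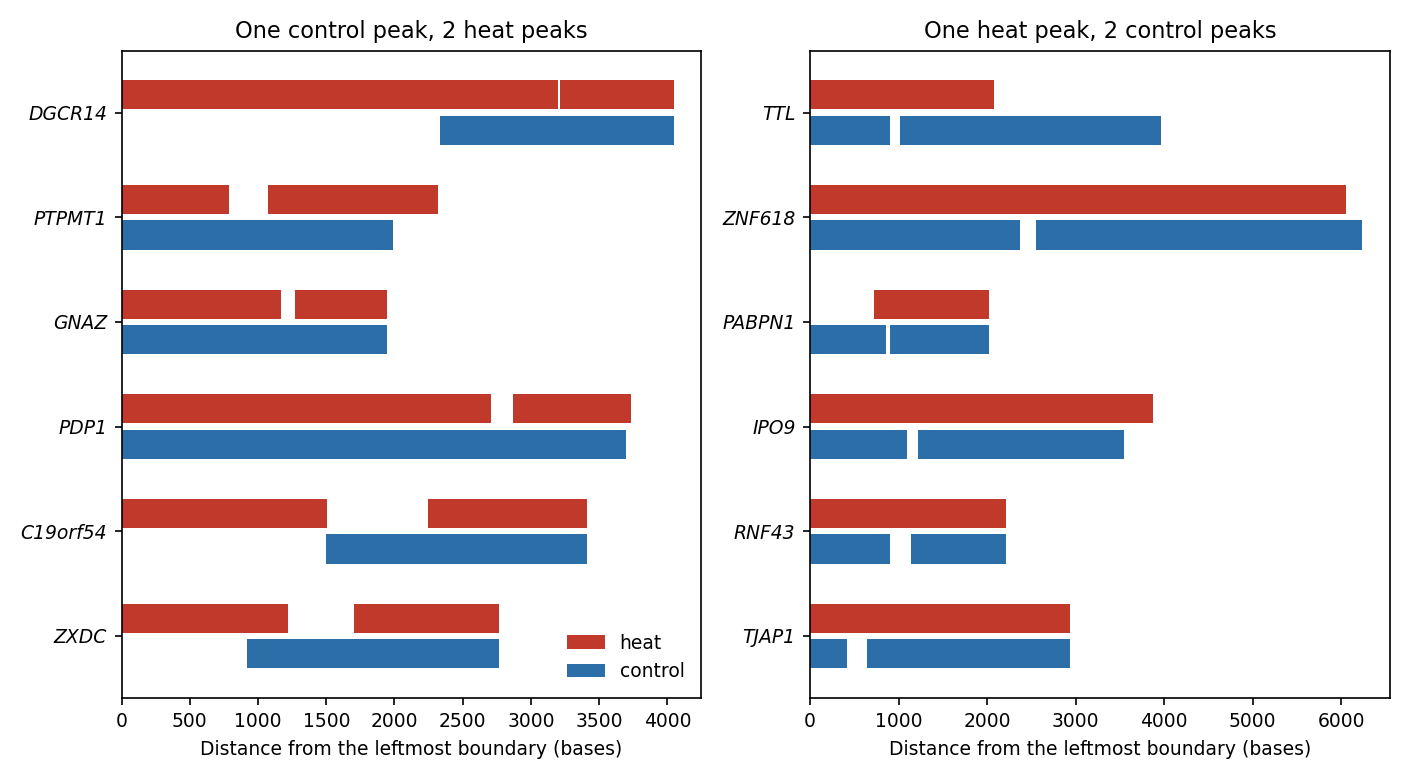
Maps to scale of 6 splits (left) and 6 joins (right) with the highest scores, ties by fold, with the heat peaks above the control peaks of each gene and distance from the leftmost edge in bases. Gaps between heat parts run from 14 bases in DGCR14 to 744 bases in C19orf54, and gaps between control parts from 41 bases in PABPN1 to 241 bases in RNF43.

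The rule sits at 2 borders. At the border of overlap, HSP90B1, the endoplasmic reticulum chaperone GRP94, had a heat peak of 231 bases and a control peak of 232 bases with 5 bases in common. ANKRD63 and TAF2 each had 13 bases in common, which was the whole heat peak. These heat peaks lay inside control peaks of 1143 and 55 bases with the same end, and had low scores of 74.2 and 112. The nearest control peaks that did not count as overlapping lay 21 bases from a heat peak in LHX6 and 23 in KLHL18. At the border of identity, AGPS, ANKRD29 and AP3D1 differed by 1 base, and 57 pairs in all did. Edges within 10 bases of each other on both sides were found in 366 pairs (10.7%), and within 50 bases in 1163 (34.0%), so a part of the members differ from the identical peaks by little.

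Among heat shock factors and chaperones, 24 of 45 genes had a control peak, and 12 of their 36 shared peaks were resized (33.3%), beside 34.2% over all shared control peaks. Of these 12, 7 were shorter (58.3%, beside 59.3% over all pairs) and 5 longer in heat. The 7 include HSP90B1, with 231 bases in heat and 232 in control but only 5 in common. BAG5, an Hsp70 nucleotide exchange factor, had 1868 bases in heat and 3197 in control, with 1329 bases lost at the 3′ side. HSPA13, an Hsp70 of the endoplasmic reticulum, had 839 and 1068 bases with 229 lost at the 3′ side, while HSPA2 had 2683 and 2769 bases with 86 lost at the 5′ side. HSPA14, an Hsp70 of the ribosome-associated complex, also had a shorter peak, 1002 bases in heat and 1337 in control. On the longer side, HSPA4, an Hsp110-type cochaperone, had 785 bases in heat and 382 in control, gaining 403 at the 3′ side. SERPINH1, the collagen chaperone, had 1032 and 743 bases, gaining 289 at the 5′ side. CLPB, the mitochondrial disaggregase, had 613 and 535, gaining 78 at the 5′ side. DNAJB6, a J protein, had 784 and 766, with the gain at the 3′ side. Both pairs of DNAJB5, another J protein, moved at the 5′ edge alone, with 157 and 191 bases and with 695 and 515. Over all pairs with a strand, the 5′ edge alone moved in 12.4%.

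The immediate early and AP-1 genes had 18 resized of 42 shared peaks (42.9%, 29.1 to 57.8%, beside 34.2% over all shared control peaks). Of these 18, 8 were shorter (44.4%, beside 59.3% over all pairs) and 10 longer in heat. The median was 30 bases longer, beside a median of -17 bases over all pairs. Their shared peaks were long, with a median control length of 1308 bases beside 645 over all. BTG2, an antiproliferative deadenylase cofactor, had 2498 bases in heat and 2178 in control, EGR1 2559 and 2411, FOS 1272 and 1183, and ZFP36, which promotes decay of AU-rich mRNAs, 1670 and 1524, each longer at the 3′ side. FOSB had 2629 bases in heat and 2594 in control. Shorter were ZFP36L2 (2261 bases in heat and 3351 in control), KLF10 (711 and 1343), KLF4 (731 and 1075) and KLF6 (887 and 1141), the last 2 by moves of the 3′ edge. The phosphatase gene DUSP4 had 2233 bases in heat and 1332 in control, and DUSP6 had 1443 and 1594.

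Genes of the EGF receptor pathway had 12 resized of 28 shared peaks (42.9%, 26.5 to 60.9%, beside 34.2% over all shared control peaks). Of these 12, 8 were shorter (66.7%, beside 59.3% over all pairs) and 4 longer. The inhibitors of Ras signalling SPRED2 (1580 bases in heat and 3142 in control) and SPRED1 (603 and 1146) had shorter heat peaks, both at the 3′ side, by -1562 and -543 bases. The ligand TGFA had a longer one, 3293 bases in heat and 2256 in control, as did the ligand HBEGF (1438 and 1208) and SPRY4, an inhibitor of the pathway (2563 and 1815). ERRFI1, an inhibitor of the receptor, had 2316 and 2191 bases. All 12 pairs had moved at the 3′ edge, beside 2441 of the 2787 pairs with a strand (87.6%) over all genes.

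For m6A writers, erasers and readers, 11 of 45 shared peaks were resized (24.4%, 14.2 to 38.7%, beside 34.2% over all shared control peaks). Of these 11, 7 were shorter (63.6%, beside 59.3% over all pairs) and 4 longer. YTHDC1, the nuclear reader, had a peak of 482 bases in heat and 1065 in control, shorter by 583 at the 3′ side, and a second of 334 and 332 bases. CBLL1, a component of the writer complex, had 1343 and 1691 bases, RBM15, which guides the writer to RNA, 3188 and 3368, and WTAP, its adaptor, had 3 shorter peaks, of which the longest had 1122 and 1173 bases. YTHDF3, a cytoplasmic reader, had 704 bases in heat and 499 in control. EIF3A, a translation initiation subunit that binds m6A, had 646 and 560.

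Chromatin modifiers and actin-associated genes were at the low end. Of 186 shared peaks of chromatin modifiers, 29 were resized (15.6%, 11.1 to 21.5%, beside 34.2% over all shared control peaks), in 23 of 42 genes with a control peak. Of their 28 pairs, 18 were shorter (64.3%, beside 59.3% over all pairs). Their shared peaks were short, with a median of 307 bases. TET3, a dioxygenase that oxidises methylcytosine, had 2245 bases in heat and 3780 in control, EP400, a remodeler ATPase, 1645 and 3047, KMT2D, a histone methyltransferase, 2474 and 2898, and NSD1, another, 2676 and 3031, all shorter at the 3′ side. Longer were one peak each of KMT2A (1368 and 647) and TET2 (3516 and 2470). ASXL2 had 2744 and 2691 bases, CHD6, a chromatin remodeler, 1272 and 1212, and DNMT3A, the DNA methyltransferase, 1384 and 1460. Of the actin crosslinkers, myosins and spectrins, 8 of 114 shared peaks were resized (7.02%), 4 shorter and 4 longer, and the median of their shared peaks was 203.5 bases. SPTBN1, a spectrin, had a peak of 586 bases in heat and 364 in control, and MYO10 1495 and 1591. MYO9A, another unconventional myosin, had 708 and 630 bases.

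The counts of the next lists stand beside 34.2% resized over all shared control peaks and 59.3% shorter over all pairs. The squamous epithelial list of desmosome, hemidesmosome and keratin genes had 9 resized of 49 shared peaks (18.4%), 3 shorter and 6 longer. DSG3, a desmosomal cadherin, had 1242 bases in heat and 920 in control, DSC2, another, 677 and 544, and PKP2, a plakophilin of the desmosome, 1407 and 1315. ELF3, an epithelial transcription factor, had one peak of 1485 and 1395 bases and one of 2058 and 2075. ITGA6, the integrin of hemidesmosomes, differed by 1 base (2114 and 2115). Collagens, laminins and integrins had 7 of 33 (21.2%), 3 shorter and 4 longer, with COL5A1 at 2683 bases in heat and 2478 in control and LAMC1 at 2549 and 2804. Giant ubiquitin ligases had 5 of 25, 4 shorter and 1 longer. The longer one was HERC2, with 984 and 856 bases, while TRIP12 had 539 and 802 and HECW1 1298 and 1353. Stress granule proteins had 6 of 25 (24.0%), 3 shorter and 3 longer. The shorter ones were G3BP1 at 1012 bases in heat and 1309 in control, G3BP2 at 1693 and 2086 and the RNA helicase DDX6 at 1276 and 1599. The longer ones were TIAL1, an RNA-binding protein of stress granules, at 891 and 890, TNRC6B, a partner of Argonaute proteins, at 955 and 810, and ATXN2 at 432 and 369. Genes of the unfolded protein response and the integrated stress response had 6 of 27 (22.2%), 2 shorter and 4 longer, with ATF6, a sensor of endoplasmic reticulum stress, at 577 and 971, CEBPG at 1378 and 994, and SEL1L, a component of ER-associated degradation, at 1590 and 1324. HERPUD1, of the same degradation machinery, had 761 and 690 bases. The fibroblast and endothelial list had 1 of 2, COL1A1 at 1182 bases in heat and 998 in control. None of the 18 genes of the immune cell list had a control peak.

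The ZNF zinc finger genes had the highest share of these lists. Of their 299 shared peaks, 155 were resized (51.8%, beside 34.2% over all shared control peaks), in 142 genes. In heat 100 of 152 pairs were shorter (65.8%, beside 59.3% over all pairs), with a median of -54 bases, beside -17 over all. Only the 3′ edge moved in 88 of the 130 ZNF pairs with a strand, beside 76.9% over all pairs with a strand. The shared ZNF peaks were long, with a median of 1508 bases beside 645 over all. Within classes of length the difference in the resized share was smaller, and it turned round in a single class. Of shared peaks over 1000 and up to 2000 bases, 66 of 100 ZNF peaks (66.0%, 56.3 to 74.5%) and 57.0% (54.9 to 59.1%) of the 2142 others were resized. Over 2000 bases the shares were 70.8% (61.1 to 79.0%) of 96 ZNF peaks and 61.8% (58.9 to 64.5%) of 1156 others. Up to 500 bases they were 13.0% (7.02 to 23.0%) of 69 and 9.34% (8.5 to 10.3%) of 4260. For peaks over 500 and up to 1000 bases, 35.3% (21.5 to 52.1%) of 34 ZNF peaks and 42.3% (40.4 to 44.3%) of 2448 others were resized. ZNF557 had 1036 bases in heat and 1797 in control, shorter by 761 at the 3′ side, while ZNF830 (1510 and 1508) and ZNF488 (3440 and 3372) were slightly longer.

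**Figure D5:**
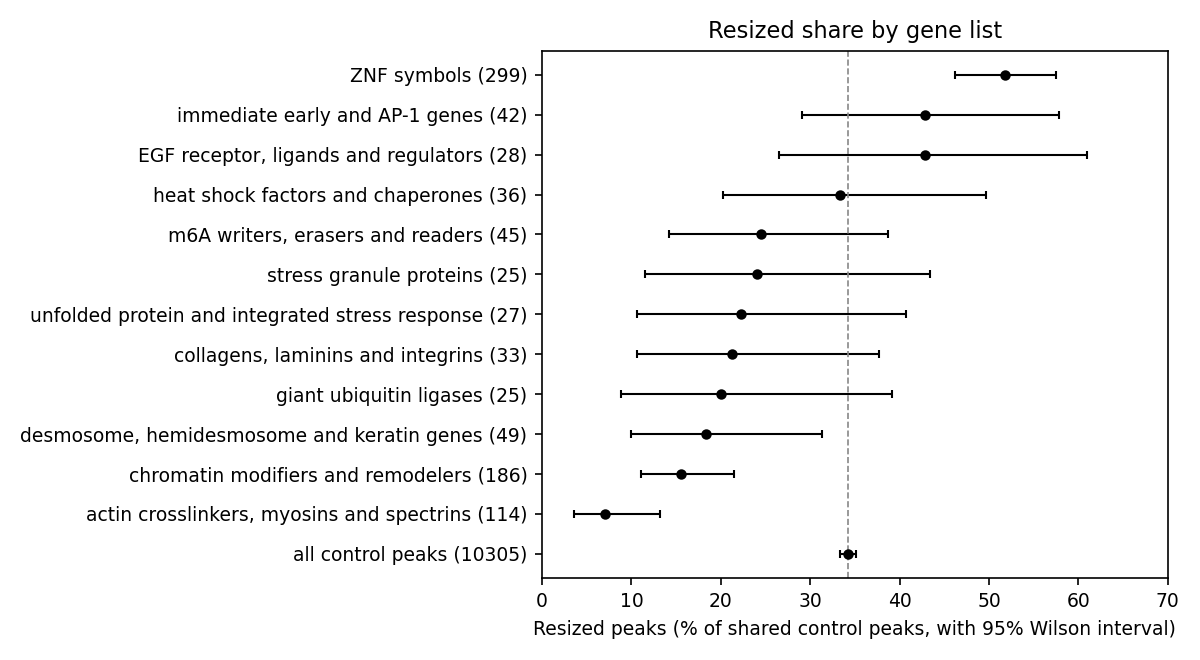
Resized peaks as a percentage of shared control peaks for each gene list with at least 20 shared peaks (number of shared peaks in brackets), with the 95% Wilson interval; the dashed line is the share of 34.2% over all shared control peaks. The ZNF genes lie at 51.8% and the actin crosslinkers, myosins and spectrins at 7.02%.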

How the data were processed

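Total RNA of CaSki cells was sequenced after m6A immunoprecipitation and as input, with 1 library of each kind per condition. Per the submitters' processing notes, cutadapt 1.9.3 and STAR were used with the hg19 build. Peak names start with MACS, a peak caller; versions of MACS and STAR and their settings were not given in the sources used here. Each condition has 1 deposited peak list. Per the file headers, the score the authors gave each peak is its p-value as -10 log10, with 50 as the lowest value (p-value 1e-05). The authors also gave a fold enrichment, which is a ratio, and a false discovery rate, which reads as percent. Starts were converted to 1-based positions. The peak numbers run to 64647 in heat and 58312 in control, and peaks that are numbered but not listed, and 1 line of the heat list, were not analysed here.

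Overlaps of at least 1 base were found in Python 3.11.15 (pandas 2.3.3), with the number of overlapping control peaks equal to that from bedtools 2.31.1, and the routine was tested on simulated regions. Strand came by gene identifier from RefSeq (GRCh38.p14) for 11769 of 14367 control peaks. Among genes with a symbol other than a bare identifier and peaks at or above the median score (1 part for splits and joins), named regions were the 4 largest changes per class of moved edges, the 6 splits and 6 joins with the highest score (ties by fold), up to 3 resized members per gene list by control score without the median limit and the 3 smallest overlaps and changes, which were taken without that limit although the rule set it; further list members were named after their values were seen, and 1 named region is not reported here. The members and lists were chosen with earlier results of these data known. Because each condition had 1 immunoprecipitated library, no test was run. The alternatives were a larger overlap, a tolerance of 50 bases, scores above 100, a false discovery rate under 100%, equal numbers of top peaks and the same gene symbol.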

Additional observations from a re-analysis of the deposited data

How the results depend on the processing

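The share of pairs shorter in heat lay between 58.2% and 59.3% under all the alternatives tried, and the median difference stayed at -16 to -18 bases except where edges within 50 bases counted as identical, which removes the smallest changes and gave -78. No paired analysis was possible because each condition had 1 immunoprecipitated library. Over all results and alternatives, 31 values moved beyond the limit set for them and 41 did not. Members numbered 1876 with both lists at or above their median score (an alternative chosen after seeing the data), 1818 at a false discovery rate under 100% and 1784 with the top 7183 peaks of each list, since fewer peaks enter. With the top 14367 peaks of each, there were 3416 members, 37 splits and 35 joins. They made up 36.4%, 35.9% and 35.9% of shared control peaks under the first 3 settings, 35.2% above a score of 100 and 22.9% with the tolerance. Splits fell to 11, 10 and 10, and to 18 above a score of 100, and joins to 14, 14 and 14, and to 22. The share in which the 3′ edge alone moved was 84.3%, 85.0% and 84.9%, and 80.2% above a score of 100 and 80.9% with the tolerance. Among the most 3′ peaks 50.6%, 50.1% and 50.5% were resized, and 39.1% with the tolerance. Among peaks between others the shares were 7.30%, 7.54% and 7.26%, 8.77% above a score of 100 and 6.18% with the tolerance.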

Other observations

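Some genes with several members showed both directions. Of 3171 genes, 319 had 2 or more resized peaks and 33 had 3 or more. Among 284 genes with 2 or more one-to-one pairs, every pair was shorter in heat in 111, every pair was longer in 48, and 125 held both directions. Over all one-to-one pairs, 59.3% were shorter and 40.7% longer. Whether the pairs of a gene tend to share a direction was not tested. ANKLE2, a protein of nuclear envelope reassembly, had 4 members, among 4 heat and 5 control peaks, and both of its one-to-one pairs were longer in heat, 786 and 2051 bases in heat and 647 and 1000 in control. AKAP17A was listed with 4 members as well, but these are the same regions entered on chromosomes X and Y, as the gene lies in the shared pseudoautosomal segment, so it counts double.

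The share of shared control peaks that were resized varied by chromosome (compared with the data already seen). Over all shared control peaks this share was 34.2%, and their median length was 645 bases. Of the chromosomes given here, 19, 22 and 20 lay below that share, and 4, 13 and 2 lay above it. On chromosome 19, 156 of 866 were resized and the shared peaks had a median length of 401 bases, and the share was 22.7% on chromosome 22 (522 bases) and 26.1% on chromosome 20 (518.5 bases). It was 47.9% on chromosome 4 (739 bases), 44.4% on chromosome 13 (695 bases) and 41.4% on chromosome 2 (698.5 bases). The part of peak length in these differences was not tested.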
